A study of Macaca mulatta with 9 samples.

Results

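Epithelial cells are held together by adherens junctions and tight junctions, and 10 genes of this adhesion system were followed here through rhesus macaque embryonic stem (ES) cells and their comparison samples. They are the cadherins CDH1 and CDH3, the surface adhesion protein EPCAM, the claudins CLDN3, CLDN4, CLDN6 and CLDN7, occludin (OCLN), the scaffold protein ZO-1 (TJP1) and the splicing regulator ESRP1. Members were found by gene symbol in the array annotation, where EPCAM and ESRP1 may stand under older names. They were 10 of 19786 named genes and had 21 of the 52763 probe sets tested. For each gene the probe set with the highest mean level stood for the gene, and the other 11 are described beside it.

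Cadherins bind their like on the neighbouring cell and anchor adherens junctions to actin. Claudins and occludin form the strands of the tight junction, which ZO-1 ties to the cytoskeleton. ESRP1 sets the epithelial pattern of alternative splicing. In human ES cells, E-cadherin and EpCAM are known surface proteins of undifferentiated colonies.

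Total RNA was hybridised to 9 Affymetrix Rhesus arrays. The ES cells were of 5 lines named ORMES, grown on mitotically inactivated mouse embryonic fibroblast feeders with FGF2 at 4 ng/ml, and well-shaped colonies were taken off manually for RNA. ORMES6 had 3 biological replicates (A, B and C) and ORMES7, ORMES9, ORMES10 and ORMES13 had 1 array each. A pool of embryoid bodies (EBs) that had differentiated spontaneously without FGF2 had 1 array, and the labels describe its culture both as 30 days in ultra-low adhesion dishes and as 1 week in suspension followed by 30 days on gelatin. Adult skin fibroblasts, trypsinised at confluence, had 1 array. All cultures contained foetal bovine serum, and the labels give no FGF2 for the fibroblasts.

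Levels are MAS5 signals, a brightness on a linear scale with a common trimmed mean for each array, and differences are on the log2(signal + 16) scale. For the tests the 3 ORMES6 arrays were averaged, the 5 lines were the replicates, and the lone EB and fibroblast arrays were assumed to vary as the lines do. A gene was called where limma's adjusted p, over all 52763 probe sets, was below 0.05. The 4 ES markers POU5F1, SOX2, NANOG and LIN28A were called higher in the ES lines in both comparisons (4 of 4), and their summed signal was 14669 to 23917 in ES cells, 2279 in the EBs and 26.7 in the fibroblasts. ORMES6 replicate C stood apart from A and B for some members. It also differed in the geometric mean signal of the hybridisation spikes, which was 1157 in C, against 594.3 and 571.3 in A and B. That signal was 877.9 in ORMES7, 1121 in ORMES9, 904.9 in ORMES10, 1148 in ORMES13 and 873.6 in the fibroblasts. The EB array had the lowest, at 505.7. The part of the spike level in the differences between lines was not tested. The 3′ to 5′ actin signal ratio, which rises with RNA degradation, was 22.7 to 66.2 in ES cells, 7.15 in the EBs and 13.1 in the fibroblasts, and its part in the results was not tested. In bulk RNA, fewer cells of a type and less RNA per cell cannot be told apart.

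Against the skin fibroblasts, CDH3, EPCAM, CLDN6 and ESRP1 were higher in the ES lines, and no member was lower. These 4 of 10 genes stand against a background of 11% of all genes called higher in ES and 7.07% called lower. The median difference over the 10 members was 2.79, against 0.25 over all 19786 genes. The fibroblast signal lay below all 7 ES arrays for 8 of 10 members, against 36.3% of all genes. On the fibroblast array 7 of 9 members with a deposited detection p-value were Absent by MAS5 (p over 0.065), and OCLN and TJP1 were Present (p below 0.05). The 9008 fibroblast p-values used came from the authors' lists of probe sets increased in ES cells over the EBs. CLDN4, in none of these lists, had no p-value. These calls thus cover a set selected for high ES signals, and no share over all probe sets can stand beside them.

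**Figure D1:**
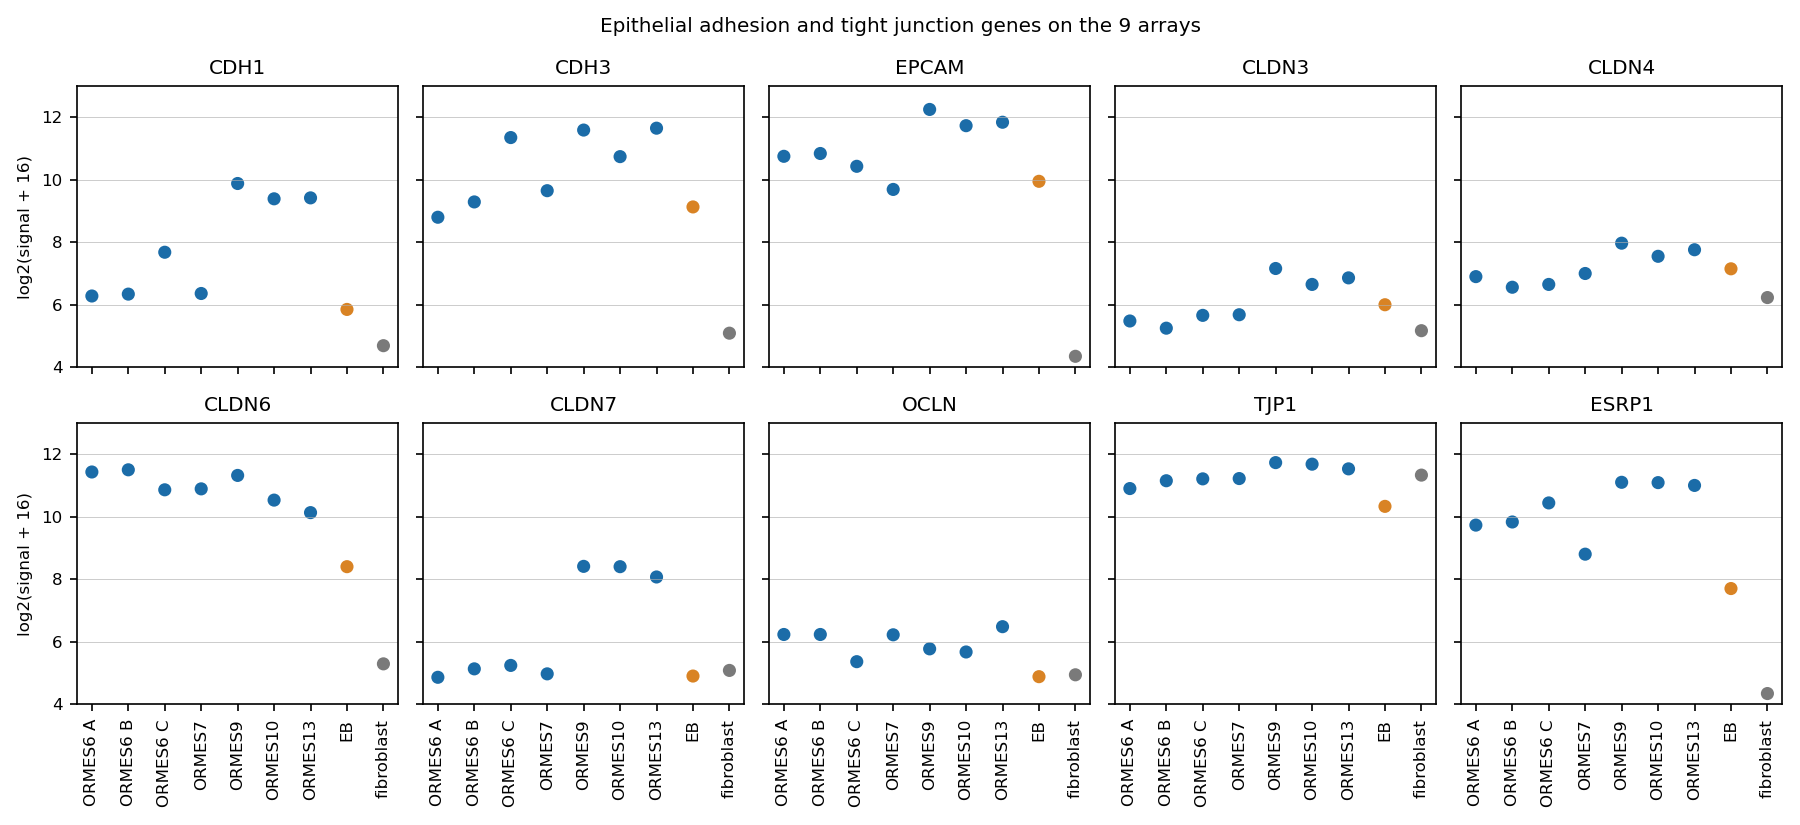
Level of each member on each of the 9 arrays, as log2(signal + 16), for the probe set that stands for the gene. Blue points are the 7 ES arrays, the orange point is the EB array and the grey point the fibroblast array. CDH3, EPCAM, CLDN6 and ESRP1 lie far above the fibroblast array on every ES array, while CDH1 and CLDN7 are high in ORMES9, ORMES10 and ORMES13.

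Among the cadherins, CDH1 (E-cadherin, the main cadherin of epithelia) gave signals of 61.9, 65.0 and 189.4 in ORMES6 A, B and C and 66.3 in ORMES7. The same probe set gave 926.0, 656.1 and 668.4 in ORMES9, ORMES10 and ORMES13, with 41.8 in the EBs and 9.8 in the fibroblasts. All 7 ES arrays lay above both other samples, but ORMES6 and ORMES7 lay well below the other lines. The mean difference from the fibroblasts was 3.68 ± 1.25 (SE, n = 5 lines), 12.8-fold, and did not pass the test (limma adjusted p = 0.0996). This and the later folds over the fibroblasts are for probe sets Absent there, and are estimates rather than lower bounds. They depend on the offset and on the probe set. For them the fibroblast side was set at its own signal or at the smallest Present fibroblast signal (7.3), whichever was higher. That smallest signal was sought among the probe sets with a deposited fibroblast p-value. Without ORMES7, the line with the lowest CDH1, the difference was 4.18 and passed (adjusted p = 0.0383). With any other line left out it was 3.3 to 4.07 and did not pass. The second CDH1 probe set had signals of 1.0 to 26.4 on all arrays and was Absent in every ES line.

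CDH3 (P-cadherin, a classical cadherin of basal epithelia and placenta) was measured at 428.5, 609.5 and 2593 in ORMES6 A, B and C and 790.0 in ORMES7, and at 3068, 1700 and 3187 in ORMES9, ORMES10 and ORMES13. The EB signal was 542.8 and the fibroblast signal 18.1. The EB value fell inside the ORMES6 replicates, whereas the fibroblast value was below every ES array. CDH3 was higher in the ES lines than in fibroblasts by 5.6 ± 0.73 (adjusted p = 0.00146), 48.4-fold, and by 5.44 without ORMES6 C (adjusted p = 0.00509). A probe set of the same CDH3 transcript that the array design marks as prone to cross-hybridisation gave 472.6, 705.4 and 910.1 in ORMES6 A, B and C, so its replicates spread by 0.46 (SD, log2), against 1.35 for the probe set that stands for the gene. The probe set marked as prone to cross-hybridisation was also called against the fibroblasts (4.50 ± 0.48, 22.6-fold, adjusted p = 0.000478). The remaining CDH3 probe set read 3.4 to 12.9 on all arrays and was Absent in every ES line. In the T2T-MMU8v2.0 macaque assembly CDH3 and CDH1 are adjacent protein-coding genes.

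EPCAM (the epithelial cell adhesion molecule) had signals of 1702, 1815 and 1359 in ORMES6 A, B and C and 807.7 in ORMES7. The signals were 4851, 3390 and 3643 in ORMES9, ORMES10 and ORMES13, with 970.4 in the EBs and 4.4 in the fibroblasts. The EB array lay between ORMES7 and ORMES6, and the fibroblast array was the lowest by a wide margin. EPCAM was higher in the ES lines than in fibroblasts by 6.88 ± 0.80 (adjusted p = 0.000776), and by 103-fold with the fibroblast side set as above. Its second probe set read 2.9 to 15.6 on all arrays and was Absent in every ES line.

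CLDN6 (a claudin of embryonic epithelia) was measured at 2754, 2903 and 1855 in ORMES6 A, B and C and 1893 in ORMES7, and at 2553, 1477 and 1116 in ORMES9, ORMES10 and ORMES13. The EB signal was 324.0 and the fibroblast signal 23.3. Every ES array was above the EB array, which was above the fibroblast array. The difference from fibroblasts was 5.54 ± 0.44 (adjusted p = 0.000124), 46.6-fold. The second CLDN6 probe set gave 490.2 to 952.3 on the ES arrays, 71.1 in the EBs and 2.1 in the fibroblasts, a difference of 5.25 ± 0.38 (adjusted p = 7.31e-05).

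The remaining claudins were not called against the fibroblasts. CLDN7, a claudin of epithelial tight junctions and lateral membranes, had signals of 13.3, 19.3 and 22.0 in ORMES6 A, B and C and 15.6 in ORMES7, close to 14.0 in the EBs and 18.0 in the fibroblasts. It reached 327.4, 323.9 and 254.0 in ORMES9, ORMES10 and ORMES13, so the lines fell on both sides of a wide gap. The mean difference of 1.91 ± 1.35 therefore had a large error (adjusted p = 0.450), and CLDN7 was Absent in ORMES6 and ORMES7, Present in ORMES9 and ORMES10 and Marginal in ORMES13.

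CLDN3 (a sealing claudin) ranged from 22.1 to 35.2 on the ORMES6 and ORMES7 arrays, with 126.8 in ORMES9, 84.1 in ORMES10, 100.5 in ORMES13, 47.8 in the EBs and 20.0 in the fibroblasts. CLDN4 (also a sealing claudin) ranged from 78.2 to 112.1 on those 4 arrays, with 235.6 in ORMES9, 171.7 in ORMES10, 201.3 in ORMES13, 126.0 in the EBs and 58.9 in the fibroblasts. For both genes the EB array lay between the ORMES6 and ORMES7 arrays on one side and the other 3 lines on the other. The differences from fibroblasts were 1.19 ± 0.65 for CLDN3 (adjusted p = 0.313) and 1.17 ± 0.50 for CLDN4 (adjusted p = 0.194). CLDN3 was Absent in ORMES6 and ORMES7 and Present in ORMES9, ORMES10 and ORMES13. The second CLDN3 probe set read 4.0 to 45 on all arrays and was Absent in every ES line. The same assembly has CLDN3 and CLDN4 as adjacent protein-coding genes.

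OCLN, the transmembrane protein of tight junction strands, was low on every array, at 59.8, 59.6 and 25.4 in ORMES6 A, B and C and 59.0 in ORMES7, and at 38.8, 35.2 and 74.0 in ORMES9, ORMES10 and ORMES13, against 13.7 in the EBs and 15.0 in the fibroblasts. All ES arrays were above both other samples, yet the difference of 1.07 ± 0.43 from fibroblasts was not called (adjusted p = 0.158). By detection OCLN was Absent in ORMES6 and Present in the other lines and in the fibroblasts. TJP1, whose product is also found at junctions of non-epithelial cells, was measured at 1913, 2266 and 2366 in ORMES6 A, B and C, 2393 in ORMES7, with 3404, 3282 and 2968 in ORMES9, ORMES10 and ORMES13. The fibroblast signal of 2570 lay within this range and the EB signal of 1276 below it. The difference from fibroblasts was 0.12 ± 0.30 (adjusted p = 0.843), and its sign depended on the scaling, with -0.16 after centring each array on its median. TJP1 has 5 probe sets, of which the second brightest gave 179.4 to 304.3 on the ES arrays, 87.5 in the EBs and 257.1 in the fibroblasts, again with the EBs lowest. The other 3 TJP1 probe sets were dim, at 10.6 to 100.5 on the ES arrays. On one of them the EB signal (28.4) was just below all ES arrays, and on the remaining ones the EB signals (32.2 and 16) and the fibroblast signals (25.7 and 27.6) lay inside the ES range.

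ESRP1 was measured at 836.4, 899.4 and 1387 in ORMES6 A, B and C and 432.5 in ORMES7, and at 2194, 2172 and 2045 in ORMES9, ORMES10 and ORMES13. The EB signal was 194.0 and the fibroblast signal 4.4. No ES array overlapped either differentiated sample, and ORMES7 was the lowest of the ES arrays. The difference from fibroblasts was 6.06 ± 0.78 (adjusted p = 0.00133), and 58.3-fold with the fibroblast side set as above. The second ESRP1 probe set gave 44.4 in ORMES7 and 141.3 to 350.5 on the other ES arrays, with 34.1 in the EBs and 23.2 in the fibroblasts. It was not called (2.46 ± 0.86, 5.5-fold, adjusted p = 0.108), and was Absent in ORMES6 and ORMES7 and Present in ORMES9, ORMES10 and ORMES13.

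**Figure D2:**
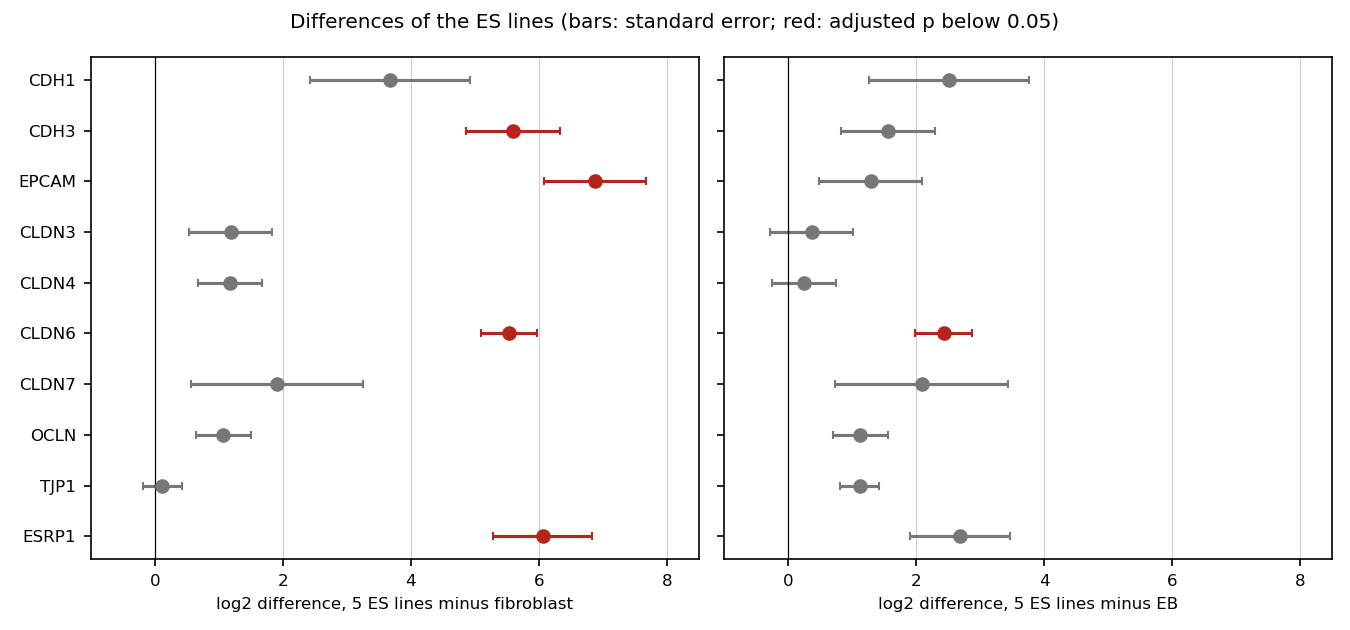
Mean log2 difference of the 5 ES lines from the fibroblast array (left) and from the EB array (right) for the 10 members. Points are estimates from the limma fit, bars are standard errors, and red marks an adjusted p below 0.05. The 4 red genes on the left are CDH3, EPCAM, CLDN6 and ESRP1, and CLDN6 is the red gene on the right.

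Against the day 30 EBs, CLDN6 was the member called, and it was higher in the ES lines. This is 1 of 10, where 1.76% of all genes were called higher in ES and 2.03% lower. CLDN6 differed by 2.43 ± 0.44 (5.38-fold, adjusted p = 0.0288), with all 7 ES arrays above the EB array, and its second probe set by 2.99 ± 0.38 (7.92-fold). Without ORMES7, ORMES9 or ORMES10 the difference was about as large, at 2.41, 2.31 and 2.50, but missed the threshold (adjusted p = 0.0614, 0.0540 and 0.0613). With the signal of the hybridisation spikes as a covariate, the difference was larger, at 3.12, and also missed it (adjusted p = 0.216), in a fit that called 1 probe set in all.

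ESRP1 differed from the EBs by 2.69 ± 0.78 and did not pass (adjusted p = 0.117), although all 7 ES arrays were higher. Without ORMES7, the line with the lowest ESRP1, the difference was 3.09 and passed (adjusted p = 0.0278). With any other line left out it was 2.52 to 2.79 and did not pass. TJP1 (1.12 ± 0.30, adjusted p = 0.0937) and OCLN (1.13 ± 0.43, adjusted p = 0.220) were also above the EB array on all 7 ES arrays without a call. CDH1 differed by 2.51 ± 1.25 (adjusted p = 0.368), CDH3 by 1.56 ± 0.73 (adjusted p = 0.336) and EPCAM by 1.29 ± 0.80 (adjusted p = 0.492), and the spread of these 3 genes between lines was wide. The EB array lay below all 7 ES arrays for 5 of 10 members (CDH1, CLDN6, OCLN, TJP1 and ESRP1), against 21.0% of all genes. The median difference over the members was 1.43, against 0.04 over all genes.

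The authors' deposited lists of probe sets increased over the EBs, made line by line from single arrays, held 3695 to 5414 probe sets each (7.0% to 10.3% of those tested), and ESRP1, CLDN6 and TJP1 were in all 5 lists (ORMES6 A, ORMES7, ORMES9, ORMES10 and ORMES13). In the authors' deposited table the log2 ratios of the 7 ES arrays over the EB array ranged from 1.1 to 3.5 for ESRP1, from 1.8 to 3.1 for CLDN6 and from 0.7 to 1.4 for TJP1. The authors' deposited lists held CDH1 and CDH3 for ORMES9, ORMES10 and ORMES13, and the deposited CDH1 ratios were 5.2, 4.7 and 4.7 in these lines, against 0.4 to 2.4 on the other 4 ES arrays. EPCAM was in the authors' deposited lists for ORMES6 A, ORMES9, ORMES10 and ORMES13, with deposited ratios of -0.3 to 1.9 over the 7 ES arrays, and CLDN3 in those for ORMES9 and ORMES10, with deposited ratios of -1.4 to 0.9. CLDN7 was in the authors' deposited list for ORMES9 alone, although its deposited ratios were 4.3, 4.3 and 3.3 in ORMES9, ORMES10 and ORMES13. OCLN was in the authors' deposited lists for ORMES6 A and ORMES7, and CLDN4 was in none.

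The EB and fibroblast arrays, 1 each, were set side by side without a test. The EB array was more than 2-fold above the fibroblast array for 5 of 10 members, against 18.2% of all genes. All 5 were Absent in the fibroblasts. With the fibroblast side set as above, the log2 difference was 5.4 for EPCAM, 4.03 for CDH3, 3.17 for ESRP1, 3.11 for CLDN6 and 1.16 for CDH1. These are estimates from 1 array each, for the probe set that stands for the gene. A further probe set gave 3.64 for CDH3, 1.9 for CLDN6 and 0.35 for ESRP1. On that ESRP1 probe set the EB and fibroblast signals were 34.1 and 23.2. TJP1 stood the other way, at -1.0, the 1 of 10 members more than 2-fold lower in the EBs, against 8.51% of all genes, and the remaining 4 members lay between -0.18 and 0.92. EPCAM and CDH3 were thus at about the level of the lowest ES arrays in the EBs and near the bottom of the scale in the fibroblasts.

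The ES lines themselves differed most in CDH1 and CLDN7. The highest line was 11.4-fold above the lowest for CDH1, 10.9-fold for CLDN7, 5.91-fold for EPCAM, 4.93-fold for ESRP1 and 3.97-fold for CDH3. The range was 3.24-fold for CLDN3, 2.42-fold for CLDN4, 2.27-fold for CLDN6, 1.76-fold for OCLN and 1.56-fold for TJP1. These folds are on the log2(signal + 16) scale with ORMES6 as the mean of its 3 replicates. ORMES9, ORMES10 and ORMES13 held the 3 highest line values for 8 of 10 members, all but CLDN6 and OCLN, a pattern chosen for counting after the values were seen. The same 3 lines were highest for 18.2% of all genes.

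The range of the lines was widest for CDH1, at 9.88 in ORMES9, 9.42 in ORMES13, 9.39 in ORMES10, 6.77 ± 0.79 (SD, n = 3) in ORMES6 and 6.36 in ORMES7. ORMES10 and ORMES13 were nearly level, and ORMES7 was within the spread of the ORMES6 replicates. For EPCAM the order was ORMES9 at 12.25, ORMES13 at 11.84, ORMES10 at 11.73, ORMES6 at 10.67 ± 0.22 and ORMES7 at 9.69, and ORMES7 lay below all 3 ORMES6 replicates. CLDN6 had another order, with ORMES9 at 11.33, ORMES6 at 11.27 ± 0.35, ORMES7 at 10.90, ORMES10 at 10.54 and ORMES13 at 10.14.

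The F test across the 5 lines, whose error comes from the 3 ORMES6 replicates alone, called 0 of 10 members (limma adjusted p below 0.05) and 0.162% of all genes. At an unadjusted p below 0.05 it held 6 of 10 members, against 12.9% of all genes. CLDN7 had the largest F among the members (F = 44.1, adjusted p = 0.0759), followed by EPCAM (F = 23.3, adjusted p = 0.161) and CDH1 (F = 13.7, adjusted p = 0.271). Replicate C of ORMES6 decided this test. Without it 7 of 10 members were called, CDH1, CDH3, EPCAM, CLDN6, CLDN7, TJP1 and ESRP1, but so were 8364 probe sets in all, against 55 with it. Without replicate A or B, 0 members were called.

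**Figure D3:**
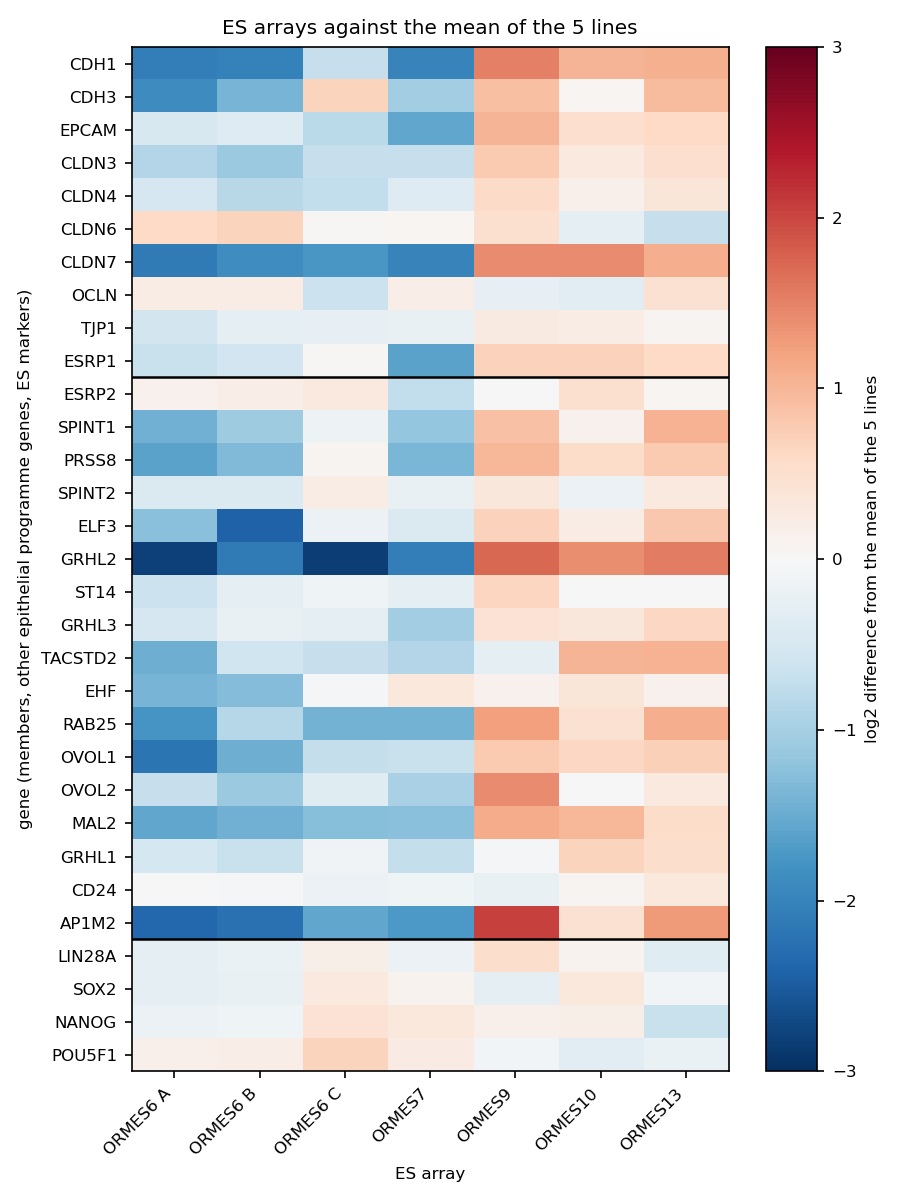
Log2 difference of each of the 7 ES arrays from the mean of the 5 lines, for the 10 members (top block), 17 other genes of the epithelial programme (middle) and 4 ES markers (bottom). Red is above and blue below the mean. CLDN7, CDH1 and GRHL2 are blue on the ORMES6 and ORMES7 arrays and red in ORMES9, ORMES10 and ORMES13, and the ES markers vary little.

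Other genes of the epithelial programme were measured as a list of 17. Against the fibroblasts 6 of 17 were higher in the ES lines and 0 lower, against 11% and 7.07% of all genes, with a median difference of 2.13, against 0.25. The largest called differences were 5.65 ± 0.27 for CD24, a surface glycoprotein of epithelial and progenitor cells (adjusted p = 1.51e-05), 5.56 ± 0.95 for MAL2, which acts in apical transport (adjusted p = 0.00549), and 4.00 ± 0.45 for ESRP2, the paralogue of ESRP1 (adjusted p = 0.000643). Against the EBs ESRP2 was the gene called, higher by 2.29 ± 0.45 (adjusted p = 0.0361), 1 of 17, against 1.76% of all genes. ESRP2 signals were 443.7, 466.6 and 500.2 in ORMES6 A, B and C, 237.2 in ORMES7, 397.4 to 572.2 in the other 3 lines, 70.3 in the EBs and 10.3 in the fibroblasts. As for ESRP1, ORMES7 was the lowest ES array.

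In 14 of these 17 genes ORMES9, ORMES10 and ORMES13 were the 3 highest lines, against 18.2% of all genes. The widest step, named after its values were seen, was in GRHL2, a transcription factor of epithelial junction genes that is known in mouse to regulate Cdh1 and Cldn4. GRHL2 gave 6.2, 19.8 and 5.8 in ORMES6 A, B and C, 20.5 in ORMES7, 498.4 in ORMES9, 393.0 in ORMES10, 430.7 in ORMES13, 14.3 in the EBs and 15.3 in the fibroblasts. Its samples were split in the same way as those of CLDN7, and its F test had an adjusted p of 0.0705.

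Of 31 other tight junction genes 4 were higher and 1 lower in the ES lines than in fibroblasts, with a median difference of 0.41. Both shares (11% of all genes were higher and 7.07% lower) and the median (0.25 over all genes) were close to the background. The largest called differences were -4.17 ± 0.52 for JAM2, a junctional adhesion molecule (adjusted p = 0.00112), 3.75 ± 0.55 for CLDN10, a pore-forming claudin (adjusted p = 0.00251), and 3.45 ± 0.45 for CGN, the tight junction plaque protein cingulin (adjusted p = 0.00138). CLDN10 and CGN were also the 2 of 31 called against the EBs, at 3.17 ± 0.55 (adjusted p = 0.0237) and 2.41 ± 0.45 (adjusted p = 0.0300), and 0 were lower, against 1.76% and 2.03% of all genes. CLDN10 signals were 109.0 to 399.6 on the ES arrays, 13.3 in the EBs and 3.6 in the fibroblasts. CLDN6 therefore stood beside CLDN10 as a claudin called higher than in both differentiated samples.

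Of 6 transcription factors of the epithelial to mesenchymal transition, which repress CDH1 in other systems, 3 were lower in the ES lines than in fibroblasts and 0 higher, against 7.07% and 11% of all genes. TWIST2 differed by -3.97 ± 0.45 (adjusted p = 0.000719), ZEB1 by -3.63 ± 1.00 (adjusted p = 0.0466) and ZEB2 by -2.78 ± 0.69 (adjusted p = 0.0312), and against the EBs TWIST2 was called (-2.75 ± 0.45, adjusted p = 0.0207). ZEB1 signals were 783.0, 767.1 and 400.2 in ORMES6 A, B and C, 894.0 in ORMES7, 68.9 in ORMES9, 309.4 in ORMES10, 253.9 in ORMES13, 2060 in the EBs and 4168 in the fibroblasts. ZEB1 was lowest in the line where CDH1 was highest and, among the ORMES6 replicates, lowest in replicate C, where CDH1 was highest. ZEB2 had the other order, at 44.4 to 100.1 on the ORMES6 and ORMES7 arrays and 182.2, 132.0 and 340.4 in ORMES9, ORMES10 and ORMES13. SNAI2 had the order of ZEB2, at 132.8 to 414.0 on the ORMES6 and ORMES7 arrays and 673.9, 533.3 and 1395 in the other lines. SNAI1 was highest in ORMES9 (137.8), the line where CDH1 was highest. ORMES9, ORMES10 and ORMES13 were the 3 highest lines for 2 of the 6 factors, against 18.2% of all genes. The part of these factors in the CDH1 differences was not tested.

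Summed signals of markers of other cell types were also higher in ORMES9, ORMES10 and ORMES13 than in ORMES6 and ORMES7. Within those 3 lines the order differed. The member sum was highest in ORMES9 (17725, against 13293 in ORMES10 and 14257 in ORMES13), and the marker sums were highest in ORMES13. The summed signal of 7 liver and yolk sac markers was 507.9 to 607.5 on the ORMES6 and ORMES7 arrays and 5097, 2787 and 7165 in ORMES9, ORMES10 and ORMES13. That of 6 trophoblast markers was 902.9 to 1432 on the same 4 arrays and 2511, 3216 and 7124 in the 3 lines. That of 12 fibroblast markers was 8078 to 11450 on the 4 arrays and 12041, 20172 and 28493 in the 3 lines. ORMES9, ORMES10 and ORMES13 were the 3 highest lines for 5 of 7, 5 of 6 and 8 of 12 of these markers, against 18.2% of all genes. Among the other markers VIM was 4670 to 6197 on the 4 arrays and 1925 to 2595 in the 3 lines. TFAP2C was highest in ORMES6. The same 3 lines were highest for 16 of 31 other tight junction genes, 6 of 14 desmosome genes and 3 of 5 keratins. They were highest for 3 of 10 adherens junction genes, 1 of 6 other cadherins and 0 of 4 ES markers. The lists' lowest markers in the 3 lines were ALB, with log2 levels of 4.74 to 5.29, KRT7, at 5.73 to 6.59, and PRRX1 and FAP, at 4.91 to 8.03. The part of such cells in the CDH1, CLDN7 and GRHL2 differences was not tested.

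**Figure D4:**
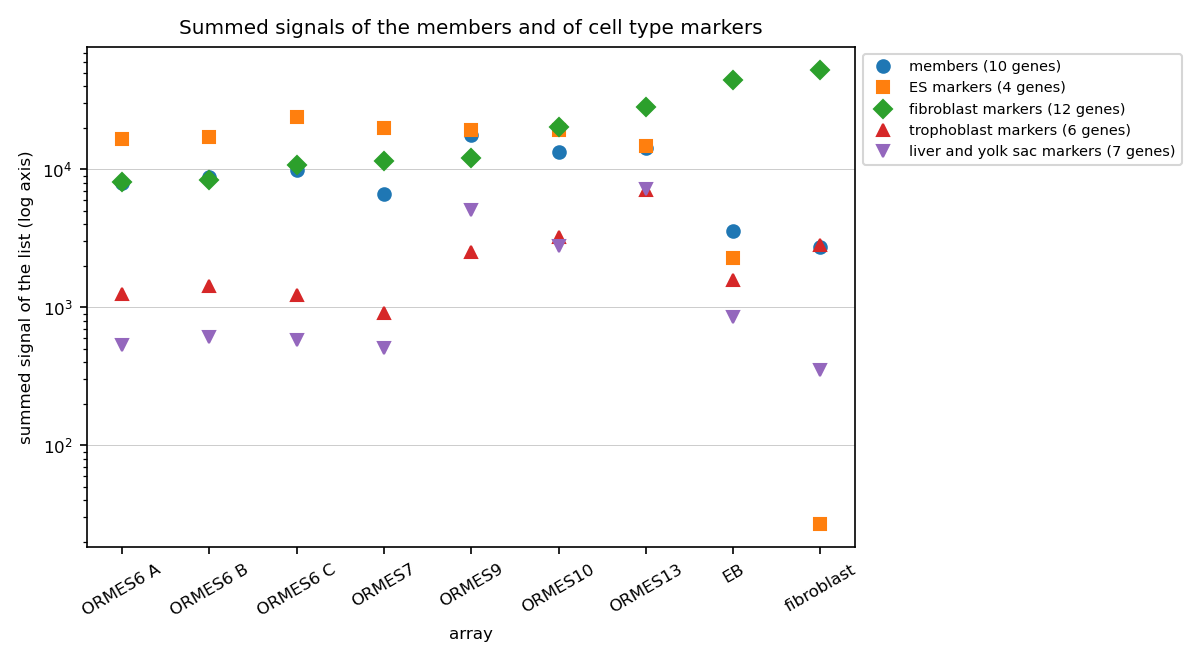
Summed MAS5 signal (log axis) of the 10 members and of 4 cell type marker lists on each of the 9 arrays. The liver and yolk sac sum is 507.9 to 607.5 on the ORMES6 and ORMES7 arrays and 2787 to 7165 in ORMES9, ORMES10 and ORMES13, while the ES marker sum is 14669 to 23917 on all 7 ES arrays.

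The genes whose profiles over the 9 arrays were most like those of 3 members were found by the root mean square difference of centred log2 values. For EPCAM they were OTX2 (0.51), C2orf31 (0.57), DSP (0.61), ESRP1 (0.63) and MYCN (0.67). ESRP1 was thus the fourth of all genes, and CDH3 the next member, at rank 27 (0.91). For CDH1 they were SH3YL1 (0.40), RGL3 (0.41), EPPK1 (0.51), LOC286126 (0.53) and KLHL14 (0.53), and CLDN7 followed at rank 11 (0.70). For CLDN6 they were SLITRK4 (0.34), EOMES (0.40), GDF3 (0.43), FOXA3 (0.49) and MBD2 (0.52), and the nearest member was ESRP1 at rank 208 (0.96).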

How the data were processed

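The authors deposited MAS5 signals, an intensity per probe set, with MAS5 named per the submitters' processing notes. The deposited tables also hold detection p-values, for 1 ORMES6 array whose letter is not given, for the other lines and in part for the fibroblasts, and the authors' log2 ratios over the EB array. EB detection calls and 138 further columns were not used. The genome build is not given in the sources used here. Signals were kept as scaled by the authors (trimmed mean 200.0 on each array), and 99 control probe sets and 3 with missing values were left out. Here log2(signal + 16) was fitted with limma 3.58.1 in R 4.3.3 (lmFit, eBayes with a trend) with Benjamini-Hochberg adjustment over all probe sets. P-values rest on the spread of the lines, with 4 residual degrees of freedom. For the fibroblast comparison, data were also simulated over 52763 probe sets. Of the log2 changes put in, 2% of those of 1, 32.4% of 2, 90.4% of 4 and 98.8% of 6 were recovered. Few simulated probe sets were changed, whereas 3400 were called higher and 2891 lower in the data. The adjusted threshold therefore differs, and these rates do not carry over directly to the test used here. All members were described, and from each other list up to 3 called genes with the largest differences per comparison. The 5 genes most like EPCAM, CDH1 and CLDN6 were named by centred profile. LSR, KRT18 and CGB3 were not matched. Gene neighbours came from the RefSeq table of the T2T-MMU8v2.0 assembly. The members and lists were chosen with earlier results of these data known. The number of arrays limits the precision. Alternatives changed the offset, scaling, filter, probe set rule, variance model, covariate, test threshold and the arrays used.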

Additional observations from a re-analysis of the deposited data

How the results depend on the processing

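The count of members higher than in fibroblasts was 4 or 5 under all 19 alternatives, the added gene being CDH1 (offset 1, without ORMES7, and with the spike covariate). The count called against the EBs was 0 or 1 when a line was left out, 0 with the spike covariate and 0 in the test against a 2-fold difference. With the spike covariate 6 differences from the EBs changed sign without a call: CDH1 (-1.85), CDH3 (-1.29), EPCAM (-1.07), CLDN3 (-1.88), CLDN4 (-1.41) and CLDN7 (-2.52). Under it 1 probe set in all was called higher and 0 lower, against 481 and 805. The EB array had the lowest spike signal (505.7) and so lay at the edge of this covariate. TJP1 against fibroblasts changed sign after median centring (-0.16), which moved the median difference of all probe sets from 0.19 to -0.10 and the calls from 3400 higher and 2891 lower to 2318 and 4147. Against the EBs, offset 1 gave 519 higher and 444 lower, and offset 64 gave 504 and 1330. Between lines 1 member (CLDN7) was called after median centring and 1 with a mean log2 level of at least 6, and 0 to 7 when an ORMES6 replicate was left out. The number of members with EB over fibroblast by more than 2-fold, whose alternatives were chosen after seeing the data, was 4 to 7. CLDN3 and OCLN could not be tested under the level filter, which removed them. No paired analysis was possible because lettered replicates exist for ORMES6 alone. With 1 EB and 1 fibroblast array, differences carry no spread of those samples, and low signals (CLDN3, CLDN7, OCLN) limit what can be read.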

Other observations

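Desmosomes, which join epithelial cells through intermediate filaments, gave 6 of 14 genes higher and 1 lower in the ES lines than in fibroblasts, with a median difference of 0.67. Over all genes 11% were higher and 7.07% lower, with a median of 0.25. DSP, the desmosomal plaque protein desmoplakin, differed by 5.94 ± 0.80 (limma adjusted p = 0.00163), PERP, a desmosomal membrane protein, by 4.39 ± 0.40 (adjusted p = 0.000230) and DSG2, a desmosomal cadherin, by 3.59 ± 0.57 (adjusted p = 0.00396). Against the EBs PKP4, a plakophilin family protein, was called (2.17 ± 0.28, adjusted p = 0.00841), 1 of 14 genes, against 1.76% of all genes higher. DSP signals were 526.3 to 852.4 on the ORMES6 and ORMES7 arrays, 2157 in ORMES9, 2146 in ORMES10, 2983 in ORMES13, 540.5 in the EBs and 7.6 in the fibroblasts.

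Of 10 adherens junction genes 3 were higher in the ES lines than in fibroblasts and 0 lower: JUP (plakoglobin, 2.36 ± 0.33, adjusted p = 0.00203), NECTIN3 (1.96 ± 0.42, adjusted p = 0.0158) and NECTIN2 (1.49 ± 0.34, adjusted p = 0.0233), both nectin adhesion molecules. Over all genes 11% were higher and 7.07% lower than in fibroblasts, which is also the background for the cadherins and keratins below. Against the EBs 0 of 10 were called, where 1.76% of all genes were higher and 2.03% lower. With shares that small, 0 calls in a short list is close to the background. Of 6 other classical and related cadherins CDH2 (N-cadherin) was higher by 3.12 ± 0.30 (adjusted p = 0.000304), with 3567 to 5636 on the ES arrays, 2540 in the EBs and 488.0 in the fibroblasts, and CDH13 (T-cadherin) was lower (-3.33, adjusted p = 0.0120). N-cadherin RNA was therefore high in the same ES arrays as EPCAM and lowest in the fibroblasts. Among 5 keratins KRT19 (6.04 ± 1.35, adjusted p = 0.020) and KRT8 (2.92, adjusted p = 0.0135) were higher and KRT7 (-5.25, adjusted p = 0.00257) lower in the ES lines than in fibroblasts, and 0 of 5 were called against the EBs.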
